A study of Mus musculus with 18 samples.

Results

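Interferon-induced genes were followed through the lungs of mice given chemicals that did or did not cause lung tumours. The list held 37 genes, chosen by name for their known induction by interferons and with earlier results of these data known. A gene was read from a probe set annotated to that symbol alone, the brightest where it had several. By this rule 33 of the 37 had a probe set, and all 33 were among the 13434 genes tested of 18193 with such a probe set in the whole table. Isg15, Gbp4, Gbp5 and Ifi44 had no such probe set, and their signals were not analysed here.

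The study asked whether lung transcripts after 13 weeks of dosing can foretell lung tumours in long rodent bioassays. Female mice of the B6C3F1 hybrid strain were dosed from 5 weeks of age and sampled at 18 weeks, and RNA of the right lung lobe was hybridised to Affymetrix whole-genome mouse arrays, 1 animal per array. Each of the 6 groups held 3 animals. The labels class 1,5-naphthalenediamine (NDA, 2000 ppm in feed) as a positive lung carcinogen. N-(1-naphthyl)ethylenediamine dihydrochloride (NEDD, 2000 ppm in feed) and pentachloronitrobenzene (PCNB, 8187 ppm in feed) are classed as negative. These 3 groups ate dosed feed on 7 days a week and share a control group on plain rodent chow, so their comparisons with it are not independent of each other. Benzofuran (2,3-benzofuran), gavaged at 240 mg/kg in corn oil on 5 days a week, is classed as positive, and its control received corn oil alone at 5 ml/kg on the same days. The labels name no transgene or deletion in any group.

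Interferons are secreted proteins that warn cells of infection. Type I and type III interferons act through receptors coupled to the kinases Jak1 and Tyk2, which lead to a complex with Stat2 and Irf9 that binds the interferon-stimulated response element (ISRE). Interferon gamma, made mainly by NK and T cells, acts through Jak1 and Jak2 and leads to binding at the gamma-activated site (GAS). In the lung, epithelial cells, macrophages and plasmacytoid dendritic cells respond to or make these proteins, and a low tonic signal keeps many of the induced genes on without infection.

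The promoters of member genes were read for both elements. A core does not show which interferon acts on a gene. RefSeq (GRCm38.p6) gave 33 promoters, 250 bases before to 50 after the start, for 26 of the 37 genes. The ISRE core GAAANNGAA, searched on both strands, occurred in 18 of these 33 promoters (54.5%), against 8.56% of all 32851 promoters in the table. The GAS core TTCNNNGAA, which reads the same on both strands, occurred in 9 of them (27.3%), against 8.3% of all. Both were present in 5 promoters (15.2%), against 1.07% of all. By family, the ISRE core was present in 4 of 5 promoters of guanylate-binding proteins, 2 of 4 of OAS genes and 2 of 4 of IFIT genes. These promoter counts include Isg15, Gbp5 and Ifi44, whose signals were not analysed and whose promoters each have an ISRE core. A match is a run of letters and not a shown binding site.

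Shown here are promoters of 4 genes whose transcripts differed in at least 1 comparison, with matched cores in capitals (a core on the other strand reads TTCNNTTTC). These are not all such genes. The promoter of Oasl2, which was also called, has neither core and is not shown. Oas2, Gbp6, Rtp4 and Parp14 were called as well and had no promoter among those read. Gbp3 (chr3:142559794-142560093, plus strand) has overlapping ISRE cores beginning 44 and 38 bases before the start. A further start of Gbp3 in the table has neither core. Gbp7 (chr3:142530086-142530385, plus strand) has an ISRE core beginning 52 bases before the start and GAS cores beginning 106 and 87 bases before it. Oas1a (chr5:120907476-120907775, minus strand) has overlapping ISRE cores at 20 and 14 bases and a GAS core at 98 bases. Oas3 (chr5:120777610-120777909, minus strand) has overlapping ISRE cores at 75 and 69 bases.
Gbp3: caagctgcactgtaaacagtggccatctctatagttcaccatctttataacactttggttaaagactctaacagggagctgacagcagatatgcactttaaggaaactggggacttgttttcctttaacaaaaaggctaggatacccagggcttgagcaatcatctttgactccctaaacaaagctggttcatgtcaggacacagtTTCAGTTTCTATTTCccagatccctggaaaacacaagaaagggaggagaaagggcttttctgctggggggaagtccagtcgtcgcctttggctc
Gbp7: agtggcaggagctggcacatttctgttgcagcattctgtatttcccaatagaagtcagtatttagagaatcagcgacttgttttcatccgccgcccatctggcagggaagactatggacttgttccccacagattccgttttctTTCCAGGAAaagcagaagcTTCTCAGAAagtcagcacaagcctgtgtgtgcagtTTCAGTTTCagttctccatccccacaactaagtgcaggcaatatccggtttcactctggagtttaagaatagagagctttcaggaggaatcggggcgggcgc
Oas1a: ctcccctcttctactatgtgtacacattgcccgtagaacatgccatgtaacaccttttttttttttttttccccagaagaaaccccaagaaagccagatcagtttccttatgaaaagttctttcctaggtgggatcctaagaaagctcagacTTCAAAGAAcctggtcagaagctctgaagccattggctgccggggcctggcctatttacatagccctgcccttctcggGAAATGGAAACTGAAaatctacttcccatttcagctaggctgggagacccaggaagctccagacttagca
Oas3: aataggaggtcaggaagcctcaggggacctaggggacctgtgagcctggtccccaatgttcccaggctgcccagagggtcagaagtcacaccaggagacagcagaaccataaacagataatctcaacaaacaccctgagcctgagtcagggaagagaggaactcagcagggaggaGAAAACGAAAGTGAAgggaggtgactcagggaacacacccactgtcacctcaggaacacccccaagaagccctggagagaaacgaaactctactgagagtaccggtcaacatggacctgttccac

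Signals are log2 values as deposited, and a fold change is the group mean less that of its control, with the standard error (SE) that limma gave in a fit to all 18 arrays. A gene is called when its p-value, adjusted by Benjamini-Hochberg over all genes of the comparison, is under 0.05. An exact permutation test of 3 arrays against 3 cannot go below 0.1, so no such test was used. In whole lung, fewer cells of a type and less RNA per cell cannot be told apart.

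Most interferon-induced genes had a log2 fold change below 0 with NDA, NEDD and benzofuran and above 0 with PCNB. Few of these differences passed the test, and with NEDD and PCNB none did. With NDA, 26 of 33 members had a log2 fold change below 0, with a median of -0.22 (all genes -0.02; 44.1% of all genes were above 0), and 1 member, Gbp3, fell, where 0.253% of all genes tested were called lower and 1.12% higher. At an unadjusted p under 0.05, 13 were lower (5.19% of all genes) and 2 higher (5.1%). With benzofuran, 27 of 33 were below 0, with a median of -0.15 (all genes 0.05; 60.2% of all genes were above 0), and 2 members, Gbp3 and Oas3, fell, where 0.171% of all genes were called lower, and 8 were lower (4.38% of all genes) and 0 higher (15.1%) at an unadjusted p under 0.05. With NEDD, 28 of 33 were below 0, with a median of -0.15 (all genes -0.02; 45.8% of all genes were above 0). No member was called by limma, where 0.0223% of all genes were. At an unadjusted p under 0.05 the NEDD comparison had 3 lower (5.23% of all genes) and 1 higher (4.21%). With PCNB, 29 of 33 were above 0, with a median of 0.20 (all genes -0.02; 43.6% of all genes were above 0). None was called by limma, where 0.0149% of all genes were, and 6 were higher at an unadjusted p under 0.05 (1.71% of all genes).

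With 3 animals a group, members whose animals did not overlap the controls at all were also counted. With NDA 12 of 33 members were apart below their controls (11.6% of all genes) and 2, Rsad2 and Mx1, above (9.48%). With NEDD 3 were apart below (12.1% of all genes) and Rsad2 above (7.23%), counts near or under the share of all genes. With PCNB 12 were apart above (3.67% of all genes) and Mx1 below (4.87%). With benzofuran 8 were apart below (4.32% of all genes) and 0 above (13.1%).

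**Figure D1:**
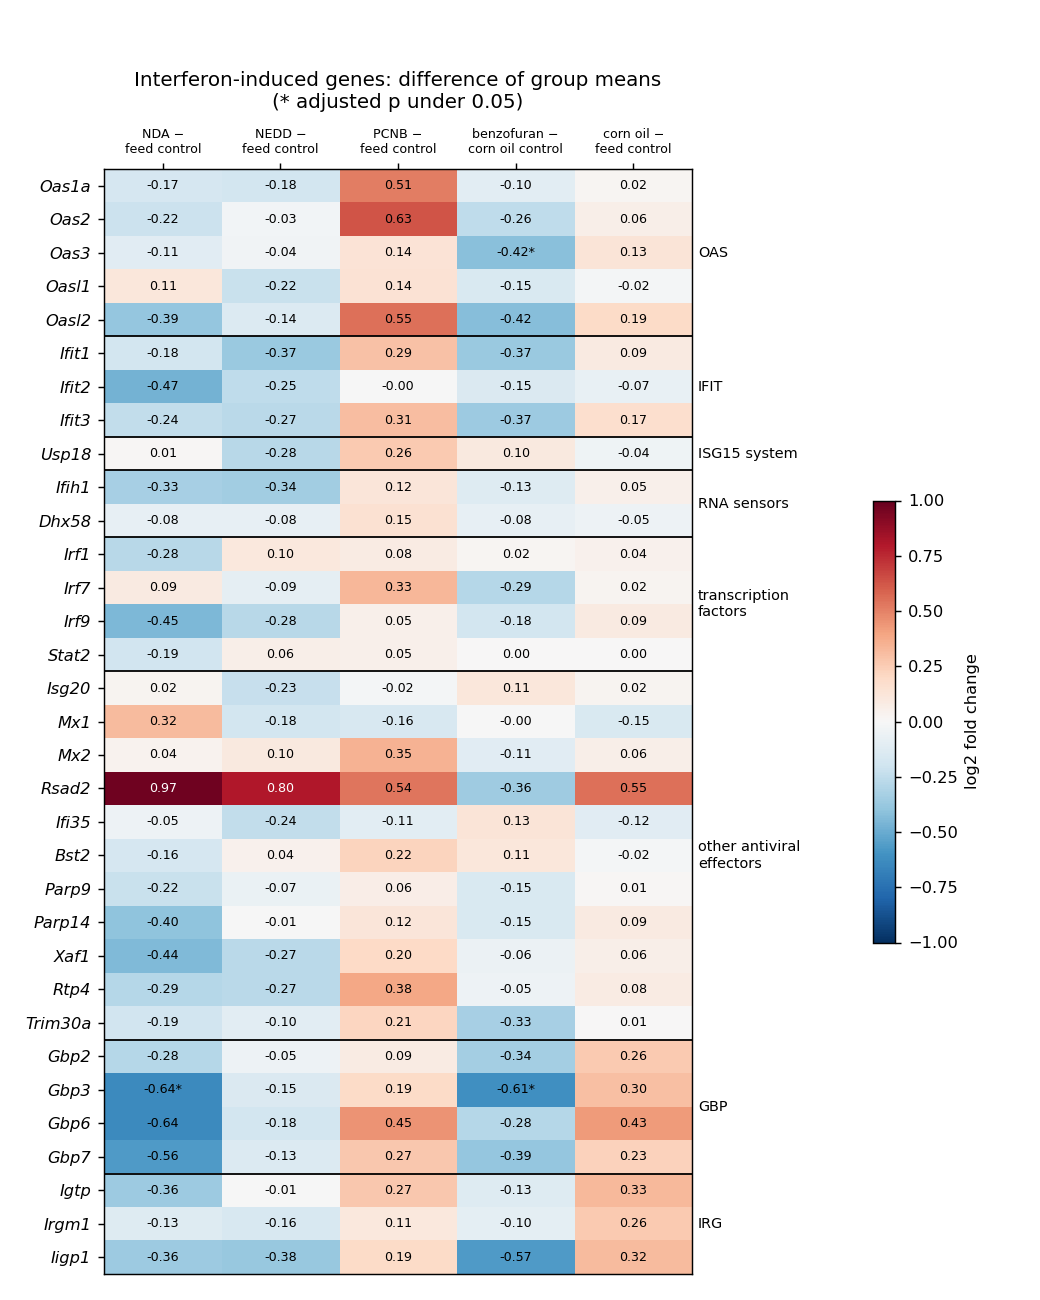
Log2 fold change of each of the 33 tested members (rows, grouped by family) in each comparison (columns, the named treatment minus its control, n = 3 animals a group). Blue is lower and red is higher in the group named before the minus sign. A star marks an adjusted p under 0.05, which Gbp3 reached with NDA and benzofuran and Oas3 with benzofuran. The GBP rows are blue for NDA and benzofuran, and the OAS rows are red for PCNB.

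The 6 group means were also ordered for each member, although feed and gavage groups had different controls. PCNB had the highest mean of the 6 groups in 20 of 33 members (60.6%), while it was highest in 9.39% of all genes tested. It was lowest in 0 members. NDA had the lowest mean in 16 members (48.5%, all genes 21.0%), NEDD in 11 (33.3%, all genes 22.7%) and benzofuran in 5 (15.2%, all genes 16.3%, a like share). Corn oil control was highest in 6 members and feed control in 1. Neighbouring groups in these orders often overlapped, as the values by animal show.

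Below, values are given by animal in the order NDA 2, 4 and 5, NEDD 12, 14 and 15, PCNB 16, 18 and 20, feed control 27, 28 and 29, benzofuran 6, 8 and 10, and corn oil control 22, 24 and 25. The oligoadenylate synthetases (OAS) sense double-stranded RNA and make the messenger that activates RNase L. Oas2 (probe set 1425065_at) read 6.45, 6.13 and 6.08 in NDA lungs, 6.32, 6.48 and 6.42 in NEDD lungs and 7.29, 7.08 and 6.83 in PCNB lungs, against 6.62, 6.31 and 6.38 in feed controls. All PCNB animals were above all feed controls, and NDA animals 4 and 5 were below every feed control while NDA 2 lay among them. Its log2 fold change was 0.63 ± 0.13, adjusted p = 0.582 with PCNB, -0.22 ± 0.13, adjusted p = 0.623 with NDA and -0.03 ± 0.13, adjusted p = 0.947 with NEDD. The gavage groups read 6.18, 6.20 and 6.35 in benzofuran lungs, against 6.44, 6.41 and 6.64 in corn oil controls. These did not overlap, and the difference of -0.26 ± 0.13 was not called (adjusted p = 0.282).

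Oasl2, an OAS-like gene (probe set 1453196_a_at), had the same arrangement of groups. It read 8.06, 7.56 and 7.61 in NDA lungs, 7.81, 8.16 and 8.00 in NEDD lungs and 8.79, 8.71 and 8.54 in PCNB lungs, against 8.23, 8.06 and 8.10 in feed controls. The PCNB animals stood above all others in feed, NDA 4 and 5 stood below, and NDA 2 was level with the lowest feed control. The log2 fold change was 0.55 ± 0.13, adjusted p = 1 with PCNB, -0.39 ± 0.13, adjusted p = 0.207 with NDA and -0.14 ± 0.13, adjusted p = 0.707 with NEDD. In the gavage groups it read 7.97, 7.79 and 7.93 in benzofuran lungs, against 8.41, 8.35 and 8.20 in corn oil controls, without overlap. That difference was -0.42 ± 0.13 and was not called (adjusted p = 0.0936).

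Oas1a, a synthetase of the same family, read 7.77, 7.57 and 7.55 in NDA lungs, 7.35, 7.88 and 7.62 in NEDD lungs and 8.41, 8.38 and 8.14 in PCNB lungs, against 7.93, 7.75 and 7.72 in feed controls. Again the PCNB animals were above every feed control, by 0.51 ± 0.14 in the log2 means, with an adjusted p of 1. NEDD 12 was the lowest of the feed animals and NEDD 14 overlapped the controls. In the groups given corn oil, signals were 7.62, 7.52 and 7.99 in benzofuran lungs, against 7.87, 7.68 and 7.90 in corn oil controls, with overlap.

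Oas3, the largest synthetase of the family, was the OAS gene called with benzofuran. It read 5.02, 5.12 and 5.07 in benzofuran lungs, against 5.64, 5.41 and 5.41 in corn oil controls. All benzofuran animals were below all corn oil controls, and Oas3 fell 1.34-fold (log2 fold change -0.42 ± 0.10, adjusted p = 0.0398). In feed it read 5.19, 5.23 and 5.32 in NDA lungs, 5.32, 5.33 and 5.33 in NEDD lungs and 5.40, 5.50 and 5.60 in PCNB lungs, against 5.51, 5.17 and 5.41 in feed controls. Each treated group overlapped the feed controls, while all PCNB animals were above all NDA and NEDD animals. These signals lie close to the 40th percentile of the arrays, 4.97 to 5.10, which is the level of the filter. The call was lost under 4 of 8 other settings and with 12 of 18 arrays left out in turn, and its adjusted p ranged from 0.00485 to 0.494. Oasl1, an OAS-like gene that was above that percentile on 15 of 18 arrays, had log2 fold changes between -0.22 and 0.14 across the 4 treatments.

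**Figure D2:**
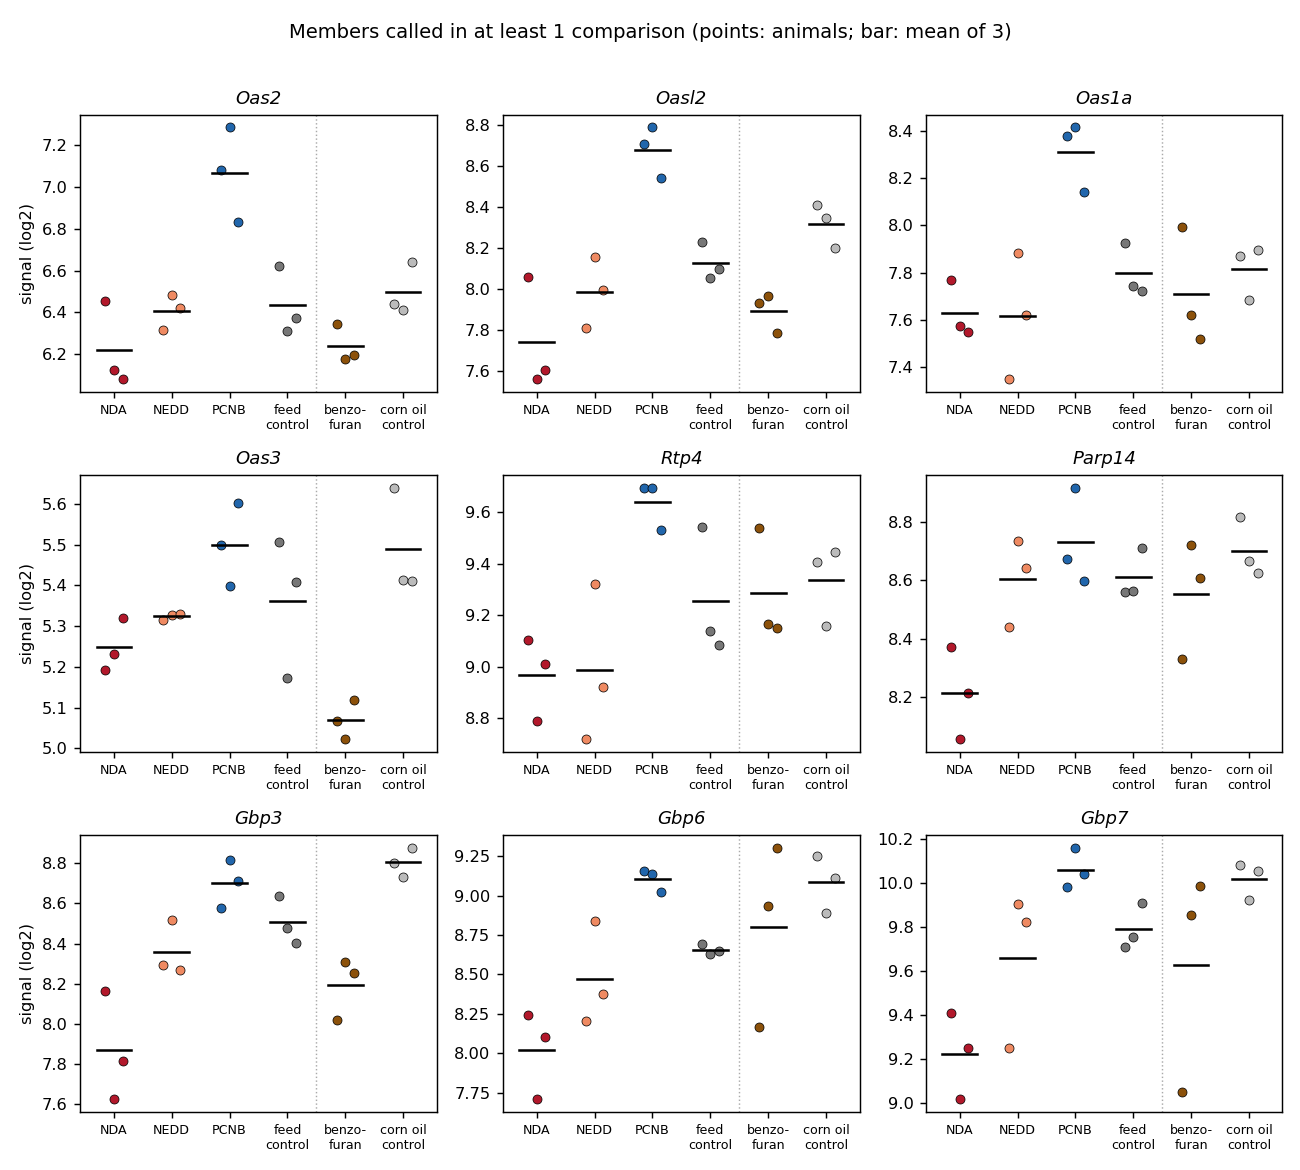
Signal (log2, vertical axis, a separate scale for each gene) of the 9 members called in at least 1 comparison, by group. Each point is an animal and the bar is the mean of 3, and the dotted line parts feed groups from gavage groups. PCNB points are the highest of the feed groups for Oas2, Oasl2 and Oas1a, NDA points lie below all feed controls for Gbp3, Gbp6 and Gbp7, and benzofuran animal 10 stands below the other benzofuran animals for Gbp6 and Gbp7.

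Guanylate-binding proteins (GBP) are GTPases that attack intracellular bacteria and parasites and are induced most strongly by interferon gamma. All 4 measured GBP genes of the list were lower in every NDA animal than in every feed control, where 11.6% of all genes were apart in that direction. Gbp8, read outside the list, was also apart below with NDA (6.44, 5.41 and 5.90, against 6.85, 7.36 and 6.52 in feed controls) and not called. Its mean was higher with benzofuran, at 7.47, 7.37 and 6.87, against 7.06, 6.78 and 7.22 in corn oil controls, with overlap. Gbp3 (probe set 1418392_a_at) read 8.16, 7.62 and 7.82 in NDA lungs, 8.29, 8.52 and 8.27 in NEDD lungs and 8.82, 8.58 and 8.71 in PCNB lungs, against 8.64, 8.48 and 8.40 in feed controls. NDA animals were below all NEDD and PCNB animals as well, with NDA 2 the nearest to them. Gbp3 fell 1.56-fold with NDA (log2 fold change -0.64 ± 0.13, adjusted p = 0.0113). That call was lost without feed control 27, without NDA 4 or without NDA 5 (adjusted p 0.0735, 0.093 and 0.0662), with log2 fold changes that stayed between -0.79 and -0.52 over every setting tried.

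Gbp3 also fell with benzofuran. Animals dosed by gavage read 8.31, 8.25 and 8.02 in benzofuran lungs, against 8.80, 8.73 and 8.88 in corn oil controls, without overlap, and the fall was 1.53-fold (log2 fold change -0.61 ± 0.13, adjusted p = 0.021). The call was lost in a fit to these 2 groups alone (adjusted p 0.328), without corn oil control 22 (0.0925) and without benzofuran 10 (0.0995). With NEDD and PCNB the Gbp3 differences were -0.15 ± 0.13 and 0.19 ± 0.13, with adjusted p of 0.695 and 1.

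Gbp6 and Gbp7 were lower with NDA by amounts like that of Gbp3 but varied more. Gbp6 read 8.24, 7.71 and 8.10 in NDA lungs, 8.20, 8.84 and 8.38 in NEDD lungs and 9.14, 9.16 and 9.02 in PCNB lungs, against 8.69, 8.63 and 8.65 in feed controls. The 3 feed groups other than NEDD did not overlap each other, with NDA lowest and PCNB highest, and NEDD spanned the range between. Its log2 fold change was -0.64 ± 0.22, adjusted p = 0.234 with NDA and 0.45 ± 0.22, adjusted p = 1 with PCNB. In the gavage groups it read 8.93, 9.30 and 8.16 in benzofuran lungs, against 9.25, 8.89 and 9.11 in corn oil controls, where benzofuran 10 was low and benzofuran 8 was the highest of both groups.

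Gbp7 read 9.41, 9.02 and 9.25 in NDA lungs, 9.25, 9.90 and 9.82 in NEDD lungs and 10.16, 9.98 and 10.04 in PCNB lungs, against 9.71, 9.76 and 9.91 in feed controls. NDA was apart below and PCNB apart above the feed controls, with log2 fold changes of -0.56 ± 0.20, adjusted p = 0.248, and 0.27 ± 0.20, adjusted p = 1. A further Gbp7 probe set gave -0.12 with NDA, so the size of this difference depends on the probe set. The gavage groups read 9.85, 9.99 and 9.05 in benzofuran lungs, against 10.08, 9.92 and 10.05 in corn oil controls, and benzofuran 10 was again far below the other benzofuran animals. The array of benzofuran 10 also stood apart in measures of the whole array, given below with RNA quality.

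Gbp2 was among the members with the smallest p for benzofuran and read 9.32, 9.40 and 8.94 in benzofuran lungs, against 9.53, 9.62 and 9.53 in corn oil controls. The groups did not overlap, and the log2 fold change was -0.34 ± 0.12, adjusted p = 0.137. In feed Gbp2 read 9.16, 8.90 and 8.99 in NDA lungs, 9.04, 9.46 and 9.25 in NEDD lungs and 9.44, 9.34 and 9.37 in PCNB lungs, against 9.30, 9.31 and 9.28 in feed controls, a narrow set of controls with NDA below it (-0.28 ± 0.12, adjusted p = 0.4). Its probe set has the suffix _x_at, by which Affymetrix marks probes that can match other transcripts, and its other probe set gave -0.41 with NDA and -0.48 with benzofuran.

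The immunity-related GTPases (IRG) Igtp, Irgm1 and Iigp1, which act on pathogen vacuoles, had log2 fold changes of -0.36, -0.13 and -0.36 with NDA. All 3 were below 0 with benzofuran and NEDD and above 0 with PCNB. None was called in any comparison.

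The IFIT proteins bind viral RNA ends and block translation. Ifit1 read 8.48, 7.93 and 8.17 in NDA lungs, 7.72, 8.16 and 8.14 in NEDD lungs and 8.58, 8.89 and 8.52 in PCNB lungs, against 8.43, 8.46 and 8.24 in feed controls. NEDD animals were below all feed controls, at -0.37 ± 0.15, adjusted p = 0.495, and PCNB animals were above them, at 0.29 ± 0.15. By gavage, signals were 7.97, 8.02 and 8.28 in benzofuran lungs, against 8.37, 8.50 and 8.52 in corn oil controls, without overlap (-0.37 ± 0.15, adjusted p = 0.184).

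Ifit2 was among the members with the smallest p for NDA. It read 8.00, 7.70 and 7.88 in NDA lungs, 7.94, 8.24 and 8.06 in NEDD lungs and 8.40, 8.39 and 8.19 in PCNB lungs, against 8.19, 8.47 and 8.33 in feed controls, and all NDA animals lay below all feed controls (-0.47 ± 0.13, adjusted p = 0.0993). In the groups given corn oil, signals were 8.40, 8.07 and 7.87 in benzofuran lungs, against 8.18, 8.32 and 8.28 in corn oil controls and overlapped. Ifit3 had log2 fold changes of -0.24 with NDA, -0.27 with NEDD, 0.31 with PCNB and -0.37 with benzofuran, none called.

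Ifih1, the cytosolic sensor of long double-stranded RNA also known as MDA5, had the smallest p of all members for NEDD. It read 8.94, 8.56 and 8.73 in NDA lungs, 8.59, 8.89 and 8.71 in NEDD lungs and 9.45, 9.06 and 9.07 in PCNB lungs, against 8.92, 9.17 and 9.14 in feed controls. Every NEDD animal was below every feed control, and the difference of -0.34 ± 0.13 was not called (adjusted p = 0.494). The gavage groups read 9.20, 8.93 and 8.85 in benzofuran lungs, against 9.20, 9.07 and 9.10 in corn oil controls and overlapped. Dhx58, a related helicase that tunes such sensing, differed by 0.15 or less in each treatment, and its groups overlapped in each.

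Irf9, the DNA-binding partner of Stat2, read 8.04, 7.85 and 8.05 in NDA lungs, 8.17, 8.38 and 7.91 in NEDD lungs and 8.68, 8.41 and 8.34 in PCNB lungs, against 8.57, 8.35 and 8.37 in feed controls. NDA animals were all below the feed controls (-0.45 ± 0.13, adjusted p = 0.113), and NEDD 14 overlapped them (-0.28 ± 0.13, adjusted p = 0.524). After gavage it read 8.28, 8.28 and 8.47 in benzofuran lungs, against 8.68, 8.46 and 8.43 in corn oil controls. Irf7, which amplifies type I interferon production, had log2 fold changes of 0.33 with PCNB and -0.29 with benzofuran. Irf1 and Stat2 differed by less than 0.30 in each treatment, and no transcription factor of the list was called.

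The other antiviral effectors did not all go one way. Rsad2 (viperin), an enzyme that makes a chain-terminating nucleotide against viruses, was the member highest with NDA. It read 9.85, 8.97 and 10.09 in NDA lungs, 9.72, 9.29 and 9.38 in NEDD lungs and 9.35, 9.34 and 8.91 in PCNB lungs, against 8.92, 8.51 and 8.56 in feed controls. All NDA and all NEDD animals were above all feed controls, with NDA 4 only just above feed control 27, and the log2 fold change was 0.97 ± 0.36, adjusted p = 0.293 with NDA and 0.80 ± 0.36, adjusted p = 0.511 with NEDD. Neither was called, and all 3 probe sets of Rsad2 were higher with NDA (0.86 to 1.07). By gavage, signals were 9.13, 8.93 and 8.50 in benzofuran lungs, against 10.37, 8.62 and 8.65 in corn oil controls, where corn oil control 22 stood far above the rest.

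Mx2, a gene of the dynamin-like GTPase family, read 5.59, 5.61 and 5.45 in NDA lungs, 5.48, 5.68 and 5.66 in NEDD lungs and 5.84, 5.76 and 5.98 in PCNB lungs, against 5.50, 5.52 and 5.51 in feed controls. PCNB animals were above all feed controls (0.35 ± 0.10, adjusted p = 1). The gavage groups read 5.57, 5.33 and 5.46 in benzofuran lungs, against 5.63, 5.45 and 5.62 in corn oil controls and overlapped. Its relative Mx1 was above the 40th percentile on only 5 of 18 arrays, too near that level for its difference of 0.32 ± 0.12 with NDA to be read as a change (adjusted p = 0.315).

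Rtp4, a chaperone of membrane receptors, read 9.10, 8.79 and 9.01 in NDA lungs, 8.72, 9.32 and 8.92 in NEDD lungs and 9.69, 9.69 and 9.53 in PCNB lungs, against 9.54, 9.14 and 9.09 in feed controls. The PCNB animals were close together, and feed control 27 overlapped them. Animals dosed by gavage read 9.17, 9.15 and 9.54 in benzofuran lungs, against 9.40, 9.16 and 9.44 in corn oil controls. Against their own controls, the log2 fold changes were -0.29 ± 0.16, adjusted p = 0.583 with NDA and 0.38 ± 0.16, adjusted p = 1 with PCNB.

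Parp14, an ADP-ribosyltransferase, read 8.37, 8.05 and 8.21 in NDA lungs, 8.44, 8.74 and 8.64 in NEDD lungs and 8.92, 8.67 and 8.60 in PCNB lungs, against 8.56, 8.56 and 8.71 in feed controls. All NDA animals were below all feed controls (-0.40 ± 0.12, adjusted p = 0.169), while PCNB overlapped them (0.12 ± 0.12). After gavage it read 8.72, 8.61 and 8.33 in benzofuran lungs, against 8.82, 8.67 and 8.62 in corn oil controls and overlapped. Xaf1, a proapoptotic induced gene, was -0.44 ± 0.16 with NDA, apart from the controls and not called (adjusted p = 0.296).

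Since NDA and PCNB lay on opposite sides of their shared control, they were also compared with each other, a comparison chosen with earlier results of these data known. Both were given in feed, at 2000 and 8187 ppm, so the doses differ. With NDA, 8 of 33 members fell relative to PCNB, where 0.253% of all genes tested were called lower and 1.12% higher, shares that happen to equal those against feed control, and 0 members were called higher. The median over members was -0.40 (all genes -0.01). In 26 members every NDA animal was below every PCNB animal, where 8.88% of all genes were apart in that direction, and Mx1 was apart above (10.3% of all genes). Members above 0 were 4 of 33, where 47.1% of all genes were.

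The largest of these differences was that of Gbp6, a log2 fold change of -1.09 ± 0.22, adjusted p = 0.0125. Oasl2 followed with -0.94 ± 0.13, adjusted p = 0.000332, Oas2 with -0.85 ± 0.13, adjusted p = 0.000935, and Gbp3 with -0.84 ± 0.13, adjusted p = 0.001. These 3 kept their call under all 9 other settings and with each of 18 arrays left out in turn. Oas1a (-0.68 ± 0.14, adjusted p = 0.0158), Rtp4 (-0.67 ± 0.16, adjusted p = 0.0406), Gbp7 (-0.83 ± 0.20, adjusted p = 0.0427) and Parp14 (-0.52 ± 0.12, adjusted p = 0.0456) were called as well. Gbp6 and Oas1a lost the call with 3 and 4 of the arrays left out, Rtp4 with 9, and Gbp7 and Parp14 with 13 each.

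**Figure D3:**
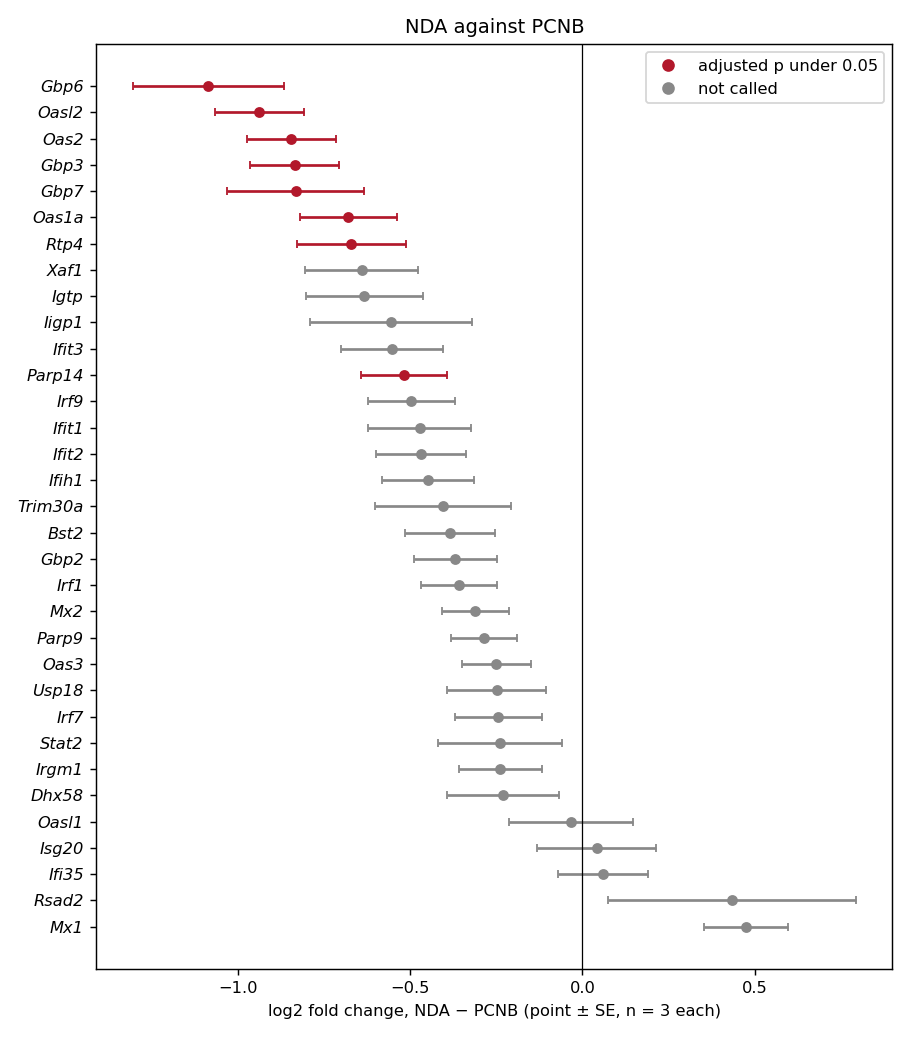
Log2 fold change of NDA minus PCNB for each of the 33 tested members (point ± SE from limma, n = 3 animals each), ordered by size. Red points have an adjusted p under 0.05, and these 8 all lie left of 0. Rsad2 and Mx1 lie furthest to the right and are not called.

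The labels' classes were set against each other as the average effect of NDA and benzofuran less that of NEDD and PCNB. By this contrast 3 of 33 members were lower, where 0.335% of all genes tested were called lower and 3.49% in either direction. These were Gbp3 (-0.65 ± 0.11, adjusted p = 0.00256), Oasl2 (-0.61 ± 0.11, adjusted p = 0.00414) and Oas2 (-0.54 ± 0.11, adjusted p = 0.0101), which kept their calls in every setting and with each array left out. The median over members was -0.23 (all genes 0.03), and 28 of 33 were below 0, where 55.7% of all genes were above 0. The effects behind the contrast differ within a class, since for Oas2 and Oasl2 NEDD lay close to 0 and PCNB well above it.

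Corn oil and feed controls were handled differently, by gavage on 5 days a week or through feed on 7. Of 33 members 26 were above 0 in corn oil controls relative to feed controls, with a median of 0.06 (all genes -0.02; 41.7% of all genes were above 0). By limma 0 were called, as were 0 genes of the whole table (0% called), and 3 members were higher at an unadjusted p under 0.05 (1.06% of all genes). All 4 GBP genes of the list and the IRG genes Igtp and Irgm1 were higher in every corn oil control than in every feed control, where 2.32% of all genes were apart in that direction. Gbp8, outside the list, overlapped between these controls. Gbp3 differed by 0.30 ± 0.13 and Gbp6 by 0.43 ± 0.22. The control of benzofuran thus had higher signals of the 4 listed GBP genes than the control of the feed groups.

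Animals of a group differed in the list as a whole. Among NDA animals, 4 of 33 members on the array of NDA 4 were above their own mean over 18 arrays, 7 in NDA 5 and 8 in NDA 2, where 44.8% to 47.1% of all genes were. NDA 2 was above the NDA mean in 26 of 33 members. In NEDD lungs the counts were 3 in animal 12, 23 in animal 14 and 9 in animal 15, so the NEDD median joins animals far apart. Over all genes these NEDD arrays had 44.3%, 38.4% and 54.4% above. PCNB animals had 29 to 31 members above their mean, against 11 to 23 in feed controls, where 44.1% to 49.3% of all genes were above on PCNB arrays, against 48.1% to 56.8% on feed control arrays. Benzofuran animals had 9 to 12, against 20 to 27 in corn oil controls, where 49.6% to 63.9% of all genes were above on benzofuran arrays, against 43.6% to 49.5% on corn oil control arrays.

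**Figure D4:**
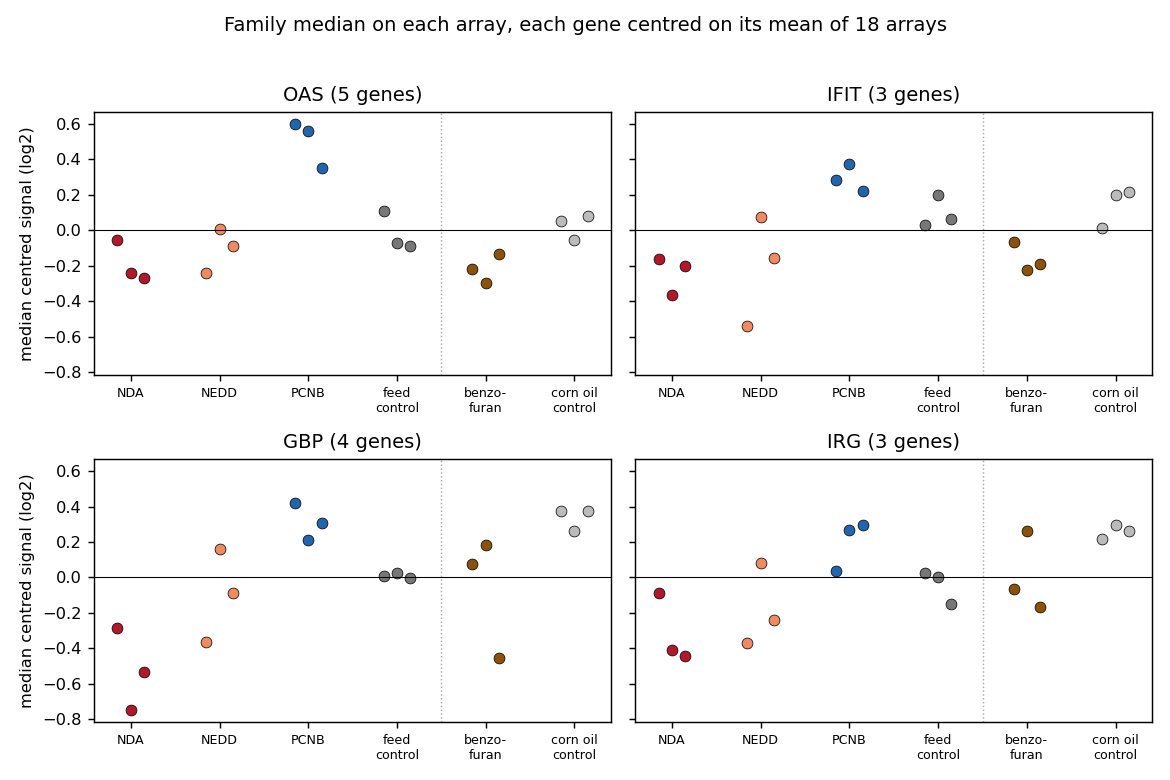
Median over the genes of a family on each array, with each gene centred on its mean over 18 arrays (log2, vertical axis, shared scale), for OAS, IFIT, GBP and IRG genes by group. Each point is an animal. PCNB points of the OAS panel lie between 0.35 and 0.60, all above the feed controls, and NDA points of the GBP panel lie between -0.75 and -0.28, all below them. NEDD animal 12 is the lowest NEDD point in each panel and NEDD animal 14 the highest.

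Among the families, OAS genes had the highest median with PCNB (0.51, and 3 of 5 genes apart above feed controls) and GBP genes the lowest with NDA (-0.60). With benzofuran the medians were -0.366 for IFIT, -0.365 for GBP and -0.26 for OAS genes, with 3 of 5 OAS genes apart below the corn oil controls. These are descriptions of few genes, and families were not tested against each other.

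Other genes of the interferon pathway were read from lists of 91 names, of which 72 were tested. Of the ligands, Ifnb1, Ifng and Ifna4 were above the 40th percentile on 0 arrays, and of 7 listed only Ifna2 was tested (-0.31 ± 0.12, adjusted p = 0.351 with NDA). Of 11 genes of receptors and signalling tested, 0 were called by limma in each comparison, with 2 lower at an unadjusted p under 0.05 with NDA (5.19% of all genes). Of 10 other regulators 0 were called, with 1 higher (5.1% of all genes) and 2 lower (5.19%) at an unadjusted p under 0.05 with NDA. Among these regulators Nlrc5, which switches on MHC class I genes, was -0.53 ± 0.16 with NDA, with an adjusted p of 0.15. Irf4 went the other way, at 6.85, 5.99 and 5.98 in NDA lungs, against 5.75, 5.98 and 5.71 in feed controls. That difference of 0.46 rests mostly on NDA 2 and was not called. Of 10 genes of nucleic acid sensing 0 were called, with at most 1 at an unadjusted p under 0.05 in a comparison. Of the 9 MHC class I processing genes 0 were called in each comparison, with at most 2 at an unadjusted p under 0.05. Below 0 were 8 of them with NDA, 5 with NEDD, 6 with benzofuran, 2 with PCNB and 9 in the class contrast. With NDA relative to PCNB 8 were below 0, and 6 were apart below (8.88% of all genes).

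The list of 28 other induced genes tested held the companions that were called. Of these 28, 23 were below 0 with NDA (median -0.147), 22 with NEDD (-0.119) and 19 with benzofuran (-0.0851). With PCNB 17 were above 0 (0.0535). With NDA against feed control 1 of them rose, Lgals3bp, a secreted glycoprotein that binds galectins. It read 9.59, 9.75 and 9.66 in NDA lungs, 9.03, 8.98 and 8.87 in NEDD lungs and 9.09, 9.25 and 9.05 in PCNB lungs, against 9.10, 8.95 and 8.72 in feed controls, with NDA above all others (0.74 ± 0.10, adjusted p = 0.000351). With NDA relative to PCNB, Cmpk2, Ifi47 and Irgm2 fell (log2 fold changes of -0.79 ± 0.16, -0.71 ± 0.11 and -0.85 ± 0.14), while Lgals3bp and Ube2l6, the conjugating enzyme for Isg15, rose (0.54 ± 0.10 and 0.86 ± 0.19). Adjusted p lay between 0.00146 and 0.0251. Cmpk2 is the genomic neighbour of Rsad2 and is induced with it by interferon, and it read 7.13, 6.99 and 7.18 in NDA lungs, 7.16, 7.38 and 7.03 in NEDD lungs and 8.17, 7.75 and 7.76 in PCNB lungs, against 7.82, 7.51 and 7.67 in feed controls. All NDA and NEDD animals were below all feed controls in Cmpk2 and above them in Rsad2. In the class contrast Ifi47 and Irgm2 were lower (-0.36 ± 0.10 and -0.48 ± 0.13).

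Of 3 chemokines tested 0 were called in each comparison. Cxcl9, induced by interferon gamma, read 6.99, 5.28 and 5.41 in NDA lungs, against 4.87, 4.99 and 4.80 in feed controls. The difference of 1.00 ± 0.35 was not called (adjusted p = 0.254), and it rests mostly on NDA 2, which also had the highest Cxcl10 of all arrays. Cxcl9 was above the 40th percentile on 6 of 18 arrays, and its feed controls lay close to that level. Ccl5, made by NK and T cells, was -0.56 ± 0.25 with NDA and 0.32 ± 0.25 with PCNB.

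In each treatment the median of the list and that of NK cell genes lay on the same side of 0. Their 4 measured markers (Ncr1, Gzma, Prf1 and Nkg7, of 5 listed) were all below 0 with NDA (median -0.48), NEDD (-0.34) and benzofuran (-0.405) and all above 0 with PCNB (0.21), and none was called in these comparisons. Their mean signal ranged from 6.74 to 7.28 in NDA lungs, 7.07 to 7.36 in NEDD lungs and 7.78 to 7.88 in PCNB lungs, against 7.37 to 7.73 in feed controls. It ranged from 7.16 to 7.75 in benzofuran lungs, against 7.36 to 8.28 in corn oil controls. Within groups the animals did not always follow this. NDA 4 was lowest of its group both in the list and in these markers (6.74). NEDD 12 was lowest of its group in the list but highest in these markers (7.36). Gzma, a granule protease of killer cells, read 9.43, 8.83 and 9.57 in NDA lungs, 9.78, 9.78 and 9.55 in NEDD lungs and 10.54, 10.47 and 10.50 in PCNB lungs, against 10.25, 10.32 and 9.90 in feed controls, and it was lower with NDA than with PCNB, with a log2 fold change of -1.23 ± 0.24, adjusted p = 0.0102. The part of NK cells in the differences of interferon-induced genes was not tested.

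**Figure D5:**
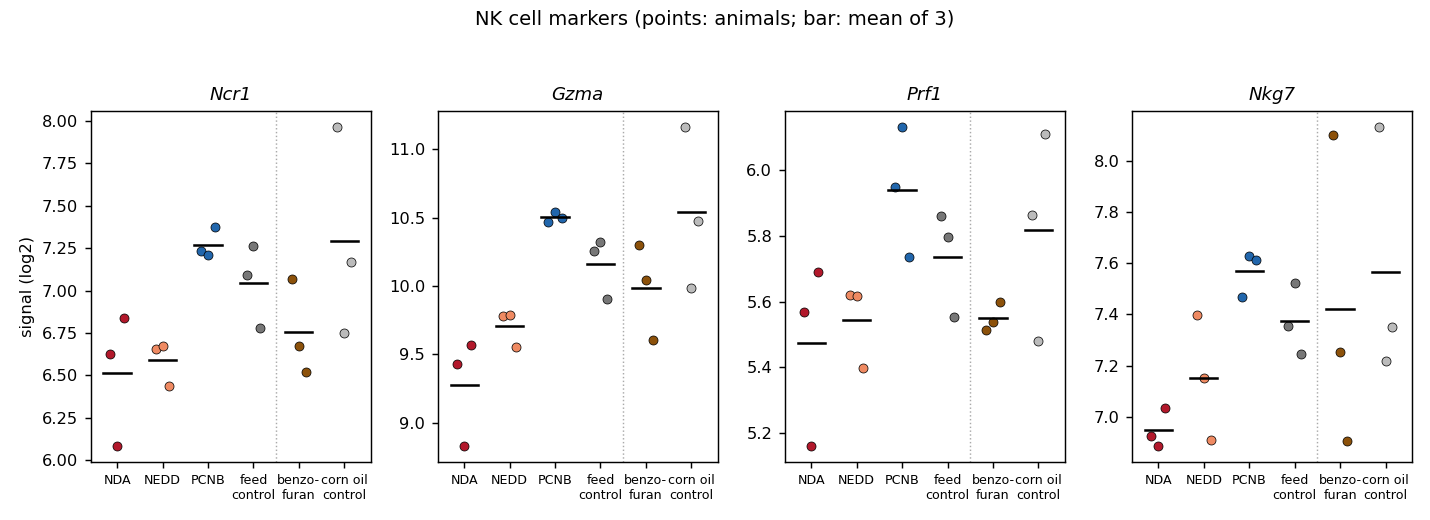
Signal (log2, vertical axis, a separate scale for each gene) of the 4 measured NK cell markers by group. Each point is an animal and the bar is the mean of 3. NDA points lie below all PCNB points for each gene, and corn oil control 22 is the highest of all arrays for Ncr1, Gzma and Nkg7.

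Markers of other cell types were read as well. T cell markers had medians of -0.02 with NDA and -0.00387 with PCNB. Of 3 plasmacytoid dendritic cell markers tested, 2 were above 0 with NDA (median 0.0868), NEDD (0.0182) and benzofuran (0.0291), and 3 with PCNB (0.199). Siglech, which averaged 5.78 over the arrays, was the one below 0 with NDA (-0.176). With NDA relative to PCNB it was apart below (-0.376, where 8.88% of all genes were apart) and not called. Endothelial markers were below 0 in 5 of 5 with NDA (median -0.265) and 4 of 5 with benzofuran (-0.269). With NEDD and with PCNB 3 of 5 were above 0 (medians 0.152 and 0.0053). In the class contrast 5 of 5 were below 0 (-0.323), with 3 lower at an unadjusted p under 0.05 (5.55% of all genes). In each of these comparisons 0 were called. Of 4 alveolar macrophage markers tested, 3 were above 0 with NDA (median 0.104) and 3 below 0 with NEDD (median -0.267), and 1 was called in each. This was Marco, a scavenger receptor, which rose with NDA (1.15 ± 0.16, adjusted p = 0.000295) and fell with NEDD (-1.04 ± 0.16, adjusted p = 0.0292). The 3 neutrophil markers tested (S100a8, S100a9 and Cxcr2) were all below 0 with NDA (median -0.357), with PCNB (-0.808) and with benzofuran (-0.669). With NEDD 2 of 3 were below 0 (median -0.399), and in corn oil relative to feed controls all 3 were (-0.426). None was called in these comparisons, and all 3 were lower at an unadjusted p under 0.05 with PCNB (1.26% of all genes) and with benzofuran (4.38%). With PCNB 0 of 3 were apart below their controls, and with NDA, NEDD and benzofuran 2 of 3 were. S100a8 read 10.9, 10.6 and 11.9 in PCNB lungs, against 11.8, 11.9 and 12.1 in feed controls, with the highest PCNB animal among the controls. The 3 ciliated cell markers were all above 0 with benzofuran (median 0.731), where Tekt4, a protein of cilia, rose (0.83 ± 0.17, adjusted p = 0.0178). In the class contrast Tekt4 and Foxj1, the regulator of motile cilia, were called higher (0.66 ± 0.15 and 0.73 ± 0.17). The alveolar type 2 cell genes Sftpc, Sftpa1 and Sftpb averaged 14.58, 13.87 and 13.05 over the arrays, and the liver gene Alb averaged 4.93. The part of these cells was not tested.

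Measures of RNA quality also differed between groups. The difference between actin probe sets at the 3′ and 5′ ends, larger in more degraded RNA, was 0.333 to 0.432 in NDA, 0.350 to 0.530 in NEDD and 0.352 to 0.581 in PCNB arrays, against 0.580 to 0.726 in feed controls. It was 0.354, 0.395 and 0.906 in benzofuran arrays, against 0.417 to 0.641 in corn oil controls, and the highest was benzofuran 10. With this difference as a covariate, the member medians stayed on the same side of 0 in all 7 comparisons, 3 members were called with NDA and 14 with NDA relative to PCNB. The share of all genes called in that fit is not given here. The RNA integrity number (RIN) of the labels, higher in less degraded RNA, did not rank the arrays the same way. It was 8.8 and 9.2 in NDA 2 and 4 and 9.1 in NEDD 14 and 15. PCNB arrays had 8.9, 8.3 and 8.3, against 8.3, 8.7 and 8.9 in feed controls. Benzofuran arrays had 9.2, 9.4 and 8.9, against 8.7 and 8.8 in corn oil controls 24 and 25. NDA 5, NEDD 12 and corn oil control 22 had none. Array medians lay between 5.68, in benzofuran 10, and 5.80. When arrays were weighted, with noisier ones counting less, benzofuran 10 had the lowest weight (0.121) and corn oil control 25 the next (0.368). Having 3 animals a group limits the precision of every value here.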

How the data were processed

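Total RNA (10 µg) of 18 right lung lobes was hybridised to Affymetrix whole-genome mouse arrays, per the labels' protocols. The authors deposited log2 values of 45101 probe sets. The base is judged from their range (2.48 to 14.78), and for summary and normalization the method is not given in the sources used here. Values were kept as deposited. Gene names came from the platform annotation (34945 with 1 symbol, 932 with several, 9160 with none, 64 controls), and 34741 matched RefSeq. Each gene is its brightest single-symbol probe set. Genes were tested if they exceeded the 40th percentile of 3 or more arrays.

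limma 3.58.1 in R 4.3.3 fitted 6 group means to 18 arrays (lmFit, contrasts.fit, eBayes, 12 residual degrees of freedom), with two-sided p-values adjusted by Benjamini-Hochberg within each of 7 comparisons and a threshold of 0.05. The procedure was tested on simulated data. Python 3.11.15 with pandas 2.3.3 and matplotlib 3.10.9 made the counts and figures. Detection calls were not used here, so a low signal is not told from background.

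Members and lists were chosen with earlier results of these data known. Values by animal are given for Oas2, Oasl2, Gbp3, each member called in any comparison and the 4 members of smallest unadjusted p for each treatment. Other members are given by count and range, up to 4 named in a family, and companion genes by counts with every called one named. Labels tie each array to its own animal.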

Additional observations from a re-analysis of the deposited data

How the results depend on the processing

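The member medians kept their sign under each of 9 other settings and with each of 18 arrays left out, over which they ranged from -0.282 to -0.153 (NDA), -0.216 to -0.0904 (NEDD), 0.150 to 0.220 (PCNB), -0.196 to -0.102 (benzofuran), 0.0329 to 0.126 for corn oil against feed, -0.293 to -0.193 for the classes and -0.496 to -0.343 for NDA relative to PCNB. Counts of called members were less steady. They are given without the share of all genes called under the same setting. They thus describe how steady the calls were and not a gain of members over other genes. With NDA, 3 were called in a fit to the groups compared alone, 3 with the actin covariate and 8 (1 higher, 7 lower) with array weights. The count was 0 to 4 with an array left out, 0 without feed control 27, NDA 4 or NDA 5, 2 without NDA 2 and 4 without benzofuran 10. With NEDD 1 was called with array weights and 0 with any array left out, and with PCNB 0 throughout. With benzofuran, 0 were called in a fit to its groups alone, 1 with the filter at the 60th percentile, with median centring, with quantile normalization or with a trended robust prior, 4 with array weights, and 0 to 2 with an array left out (0 without corn oil control 22 or benzofuran 10). For the classes, 5 were called with the mean of all probe sets, 5 with the actin covariate, 8 (1 higher, 7 lower) with array weights and 3 to 8 with an array left out (8 without benzofuran 8). For NDA relative to PCNB, 21 (1 higher, 20 lower) were called with array weights, 14 (1 higher, 13 lower) with the actin covariate and 3 to 13 with an array left out (3 without NDA 4, PCNB 16 or PCNB 18, 4 without NDA 5, 5 without PCNB 20, feed control 28 or corn oil control 22, and 13 without benzofuran 10). The cause of these shifts was not tested. No value of a called member turned its sign in 377 refits, and 145 of 5825 values of uncalled members did. No paired analysis was possible because the animal numbers of the groups do not repeat. Signal over background limits Mx1, Oasl1 and Oas3 most.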
